A study of Saccharomyces cerevisiae with 7 samples.

Results

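Occupancy of RNA polymerase II (RNAPII) over protein-coding genes was compared between budding yeast without the histone acetyltransferase Rtt109 (*rtt109Δ*) and the isogenic wild type (WT), and is described here by gene family. Every nuclear open reading frame (ORF) of the RefSeq annotation of the R64 assembly was a member when windows of the 2 tracks were centred in it, which gave 5781 of 6002 ORFs. The 214 ORFs of chromosome IX were not analysed here, and 7 others held no window. The strains were of the W303 background (WT strain CY1089, *rtt109Δ* strain CY2210, and an *rrp6Δ* strain, CY2071, used below only to rank ORFs), with no other allele or agent named in the labels. Asynchronous cells were taken in log phase in YEP medium with 2% glucose at 30°C, and their chromatin was fixed with formaldehyde and cut by micrococcal nuclease. The labels give 8WG16, directed against the C-terminal domain (CTD) of the largest RNAPII subunit, as the precipitating antibody, while the study's methods print its name as 8WG18. Each genotype had 2 immunoprecipitated (IP) libraries and 1 W303 input library served them all, but the deposited values are 1 IP/input ratio track per genotype with the replicates already combined. Each difference below is therefore between single tracks and has no replicate check, and the depth behind the values is unknown.

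Rtt109 acetylates lysine 56 of newly made histone H3 (H3-K56Ac) together with the histone chaperones Asf1 and Vps75. The mark weakens the grip of the nucleosome on DNA, and new histones that carry it enter chromatin behind replication forks and at sites of rapid nucleosome exchange, which in yeast are mostly promoters. RNAPII is recruited to promoters and then travels through the ORF, so its density over an ORF is used as a readout of transcription. The 8WG16 antibody binds the repeats of the CTD and is known to prefer repeats without phosphate. The study asked with this comparison whether RNAPII density changes where H3-K56Ac is lost.

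The value of an ORF was the mean IP/input ratio of the windows of 100 bp centred between its start and stop codon, and changes are log2 ratios of *rtt109Δ* to WT. An ORF is called higher or lower when it was more than 1.3-fold apart, a log2 ratio beyond 0.38 in either direction. Over RTT109 (YLL002W, chromosome XII, 146291 to 147601) the ratio was 1.36 in WT and 0.0178 in *rtt109Δ*, so the deleted gene was nearly absent from the track of its own strain. Of all 5781 ORFs, 551 (9.53%) were lower and 505 (8.74%) higher, and the median log2 ratio was -0.05 with an interquartile range of -0.22 to 0.14. Both tracks had a median window of exactly 1, so these values cannot show a shift common to all windows. The median ORF was at 0.974 in WT and 0.943 in *rtt109Δ*. Division of each track by its median ORF adds 0.048 to every log2 ratio and gave 371 lower ORFs (6.42%) and 644 higher ORFs (11.1%). Division by the mean over all windows adds 0.093. In a culture, RNAPII on fewer cells and less RNAPII per cell cannot be told apart.

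The ORFs were read through 42 gene families, which hold 1608 of the 5781 ORFs. They were written from textbook gene names with earlier results of these data known. The contrast with the other ORFs may therefore partly reflect that choice and is a description only. The higher ORFs lay in the families more often than the lower ones: 256 of the family ORFs (15.9%) were higher and 93 (5.78%) lower, while among the 4173 other ORFs 249 (5.97%) were higher and 458 (11.0%) lower. The family medians differed more in WT, where they ran from 0.638 to 1.23, than in *rtt109Δ*, where they ran from 0.794 to 1.06. As deposited, 20 family medians of the log2 ratio were above 0 and 22 below. Both other scalings add a positive constant to every log2 ratio, so the 20 had to stay above 0. Of the 22, 9 stayed below 0 under both, and the 13 between -0.08 and 0 changed sign with the scaling. Genes of sugar breakdown, protein synthesis and the synthesis of amino acids and sterols made up the upper end, and genes of meiosis, autophagy and peroxisomes the lower end.

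**Figure D1:**
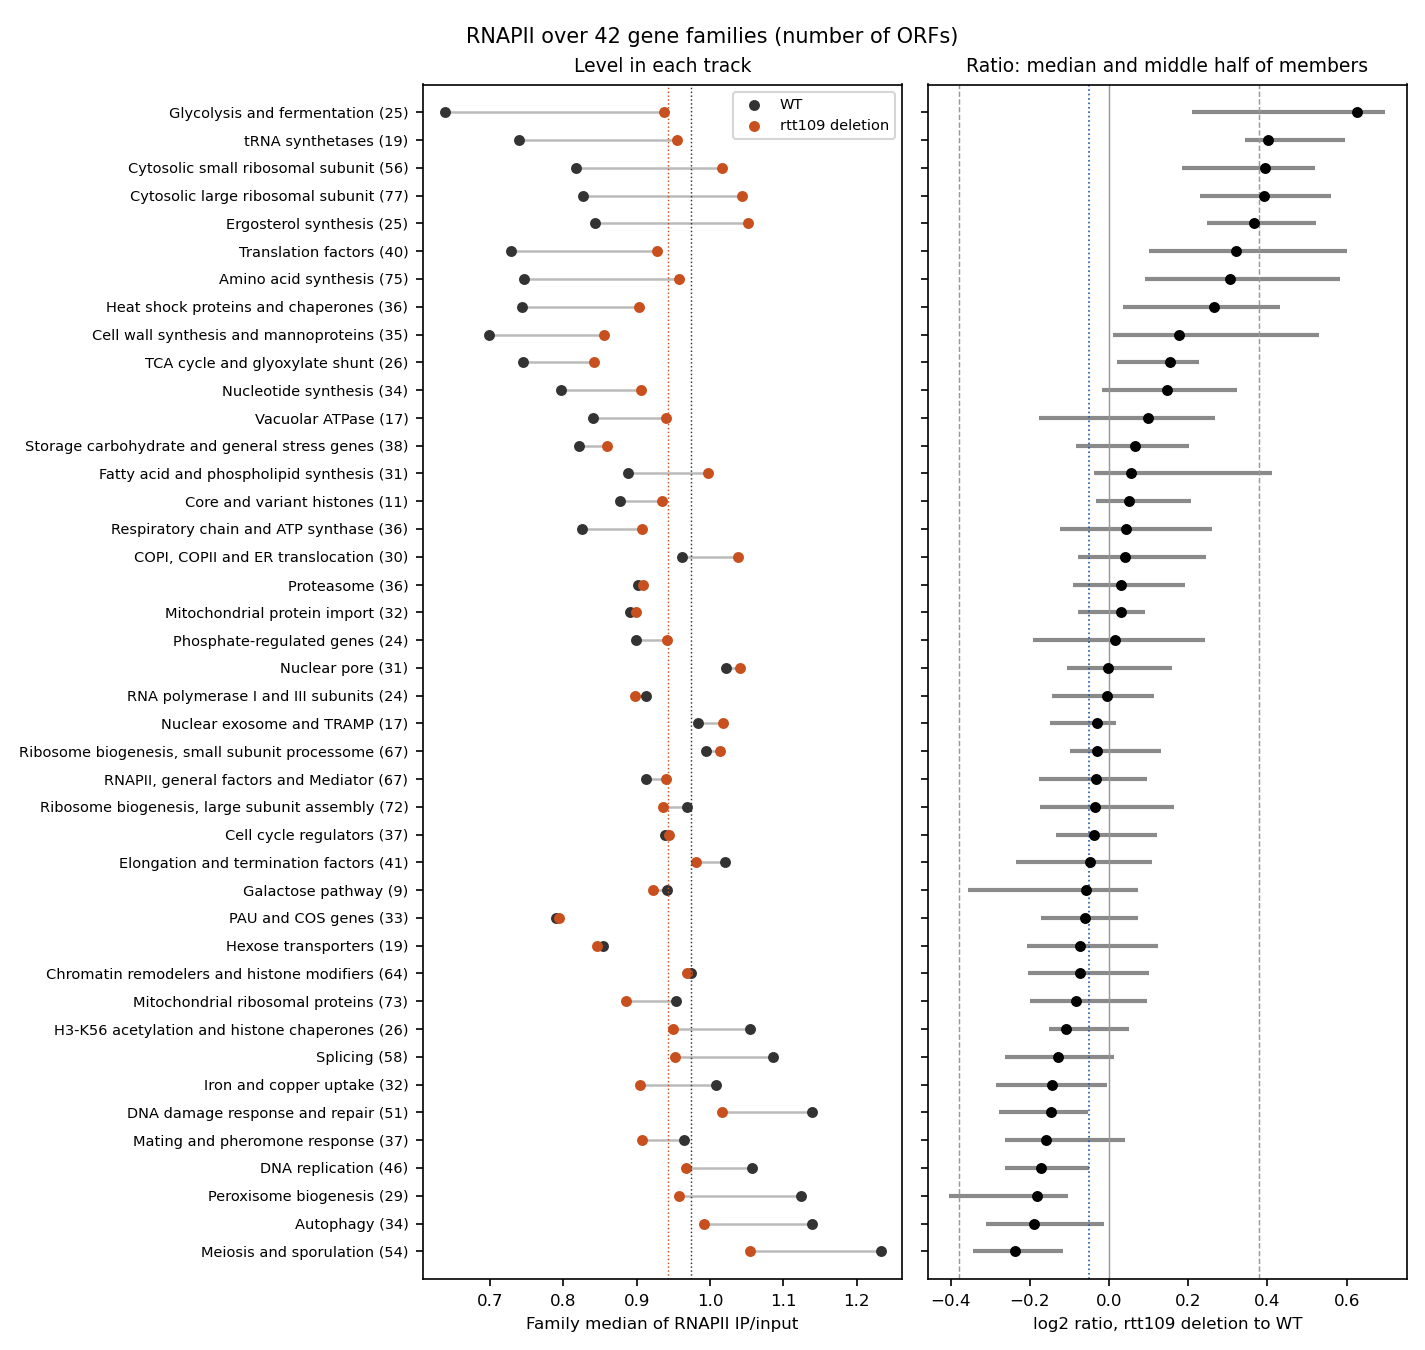
RNAPII over 42 gene families, with the number of ORFs in brackets. Left, the family median of the IP/input ratio in WT (dark) and *rtt109Δ* (orange), with dotted lines at the median ORF of each track. Right, the median (point) and interquartile range (bar) of the log2 ratio over the members, with dashed lines at 1.3-fold and a blue dotted line at the median of all ORFs. The medians lie from -0.24 for meiosis to 0.63 for glycolysis, and the levels lie closer together in *rtt109Δ* than in WT.

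The WT levels did not follow how strongly these genes are known to be transcribed in glucose. Glycolytic and ribosomal protein genes are among the most heavily transcribed genes of growing yeast, and meiotic and galactose genes are shut off in glucose. In the WT track the median glycolytic ORF was at the 9.43rd percentile of all ORFs, the median ORFs of the large and small ribosomal subunits were at the 28.7th and 27.5th, the median galactose ORF was at the 45.6th and the median meiotic ORF was at the 80.2nd. In *rtt109Δ* the same families were at the 48.6th, 67.9th, 62.8th, 44.9th and 69.6th percentile. A high ratio in these tracks is therefore not read below as a high rate of transcription. A low WT ratio did not always go with a rise. The subtelomeric PAU and COS genes were at the 24.1st percentile in WT and hexose transporters at the 32.6th, with median log2 ratios of -0.06 and -0.07.

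Glycolysis turns glucose into pyruvate, and fermentation turns pyruvate into ethanol. Of the 25 ORFs of the family, 17 were higher in *rtt109Δ*, none was lower and all 25 had a log2 ratio above 0, with a median of 0.63. The median ratio was 0.638 in WT and 0.937 in *rtt109Δ*. Following the pathway (enzymes beyond the leading ones were added after their values were seen), the hexokinases HXK2 and GLK1 had log2 ratios of 0.42 and 0.64, phosphoglucose isomerase PGI1 0.71, and the phosphofructokinase subunits PFK1 and PFK2 0.65 and 0.70. Aldolase FBA1 was at 0.613 in WT against 1.08 in *rtt109Δ* (log2 ratio 0.81). Triose phosphate isomerase TPI1 had 0.62, phosphoglycerate kinase PGK1 0.66 and phosphoglycerate mutase GPM1 0.80. The glyceraldehyde phosphate dehydrogenases TDH1, TDH2 and TDH3 had 0.60, 0.69 and 0.57, and the enolases ENO1 and ENO2 0.64 and 0.63, but TDH2 with TDH3 and ENO1 with ENO2 are so alike in sequence that reads may be shared.

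At the last steps, from pyruvate kinase on, the main isozymes were called higher and their partners were not. Pyruvate kinase CDC19 (YAL038W, chromosome I, 71786 to 73288), the form used in glucose, went from 0.558 to 1.18, a log2 ratio of 1.09, while its paralog PYK2 went from 0.736 to 0.803 (0.13). Pyruvate decarboxylase PDC1 (YLR044C, chromosome XII, 232390 to 234081) went from 0.638 to 1.13 (0.83), while PDC5 and PDC6 had log2 ratios of 0.02 and 0.04. Alcohol dehydrogenase ADH1, which makes ethanol, went from 0.882 to 1.43 (0.70), while ADH2, which consumes it when glucose is gone, went from 0.492 to 0.569 (0.21) and ADH3, ADH4 and ADH5 had 0.17, 0.04 and 0.13. HXK1, the hexokinase repressed by glucose, had 0.24, but GLK1, TDH1 and ENO1, which are also known for conditions other than rapid growth on glucose, had 0.64, 0.60 and 0.64, each called higher like its partners. The 8 ORFs of the family that were not called were thus HXK1, PYK2, PDC5, PDC6 and the 4 alcohol dehydrogenases other than ADH1. CDC19 lies on chromosome I, where the median log2 ratio of all ORFs was 0.30, against -0.09 to 0.06 on the 14 other chromosomes. It stood 0.78 above that chromosome's median, and without chromosome I the family median was 0.62. The 0.06 was the median of chromosome XII, where PDC1 lies. There 17.3% of ORFs were higher, against 42.6% on chromosome I and 8.74% of all ORFs. RPP0, YEF3, ILV5 and ACS2, named below, also lie on chromosome XII.

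The cytosolic ribosome is built from the ribosomal protein genes, most of which yeast keeps as pairs of paralogs. Of 77 large-subunit ORFs, 40 were higher and none lower, with a median log2 ratio of 0.39. Of 56 small-subunit ORFs, 29 were higher and 2 lower, also with a median of 0.39. The median ratios were 0.827 and 0.818 in WT and 1.04 and 1.02 in *rtt109Δ*. By the rule for single genes, RPL9B (YNL067W, chromosome XIV, 499681 to 500256) led, at 0.546 before and 1.09 after the deletion (log2 ratio 1.00). RPP0, the base of the ribosomal stalk, went from 0.514 to 0.981 (0.93), and RPL5, which binds 5S rRNA, from 0.58 to 1.04 (0.84). In the small subunit RPS31, made as a fusion with ubiquitin, went from 0.512 to 0.966 (0.92), RPS9A from 0.907 to 1.498 (0.72) and RPS0B from 0.851 to 1.37 (0.69). These rising genes all lay under the median ORF of WT, so they met the rule only through their *rtt109Δ* value. The 2 lower ORFs were RPS10B, which went from 1.39 to 1.05 (-0.41), and RPS29B, named after its value was seen, which went from 0.534 to 0.41 (-0.38). After division by the median ORF neither was called lower. The windows of an ORF with an intron include the intron, as in RPS9A, RPS0B and RPS10B.

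The paralogs of a ribosomal protein have promoters of their own. In the 54 pairs with values for both copies, both were higher in 15 pairs, 1 copy in 22 and neither in 17, and both log2 ratios were above 0 in 47. The log2 ratios of the copies differed by a median of 0.167. The largest gap was in RPL15, where RPL15A went from 0.50 to 0.839 (0.75) and RPL15B from 0.574 to 0.583 (0.02). RPS10A had a log2 ratio of 0.31 against -0.41 for RPS10B. The coding sequences of many pairs are nearly identical, so the value of a single copy is uncertain.

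Translation factors bring mRNA and tRNA to the ribosome. Of 40 ORFs, 17 were higher and 2 lower, with a median of 0.32. By the rule for single genes, YEF3 (YLR249W, chromosome XII, 636780 to 639914), the fungal elongation factor 3, went from 0.595 to 1.18 (0.99), HYP2, the elongation factor eIF5A of cells with oxygen, from 0.657 to 1.24 (0.92), and TEF1, one of the nearly identical genes for elongation factor 1A, from 0.576 to 1.07 (0.90). TEF2 had 0.77. The partner of HYP2, ANB1, which is expressed without oxygen, went from 0.598 to 0.529 (-0.18). The lower ORFs were the initiation factors TIF11 (eIF1A), which went from 1.05 to 0.743 (-0.50), and SUI1 (eIF1), from 1.16 to 0.875 (-0.41). SUI1 is 327 bp long and covers 6 windows. GCN3, a subunit of the exchange factor eIF2B, had -0.17. Among translation factors on chromosome I, named for their position, EFB1 had 0.75 and FUN12 0.89, which is 0.45 and 0.58 above the median of that chromosome.

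Aminoacyl-tRNA synthetases charge tRNAs with amino acids. All 19 had a log2 ratio above 0, 11 were higher and none was lower, with a median of 0.40 and an interquartile range of 0.34 to 0.60. That range was narrower than in the other families with a median above 0.30. The asparaginyl enzyme DED81 went from 0.63 to 1.03 (0.71), the lysyl enzyme KRS1 from 0.739 to 1.14 (0.63) and the leucyl enzyme CDC60 from 0.775 to 1.19 (0.62). The lowest value was 0.16, at the seryl enzyme SES1.

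The assembly factors that make ribosomes stayed near the bulk of the genome. In growing yeast the genes of ribosome biogenesis and of ribosomal proteins are known to be controlled together by nutrients. Of 67 ORFs of the small-subunit processome, 2 were higher and none lower, with a median of -0.03. Of 72 ORFs of large-subunit assembly, 2 were higher and 1 lower, with a median of -0.04. Both medians were slightly above 0 after division by the median ORF. MPP10, a core processome protein, went from 0.873 to 1.19 (0.44), the GTPase NOG1 from 0.656 to 0.993 (0.60), and IPI1, which acts in rRNA processing, from 1.09 to 0.752 (-0.54). The RNA polymerases I and III, which make rRNA and tRNA, had a median of -0.0066 over 24 ORFs, with the second largest subunit of polymerase I, RPA135, at 0.43. The family medians in WT were 0.995 for the processome and 0.969 for large-subunit assembly, near the median ORF.

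**Figure D2:**
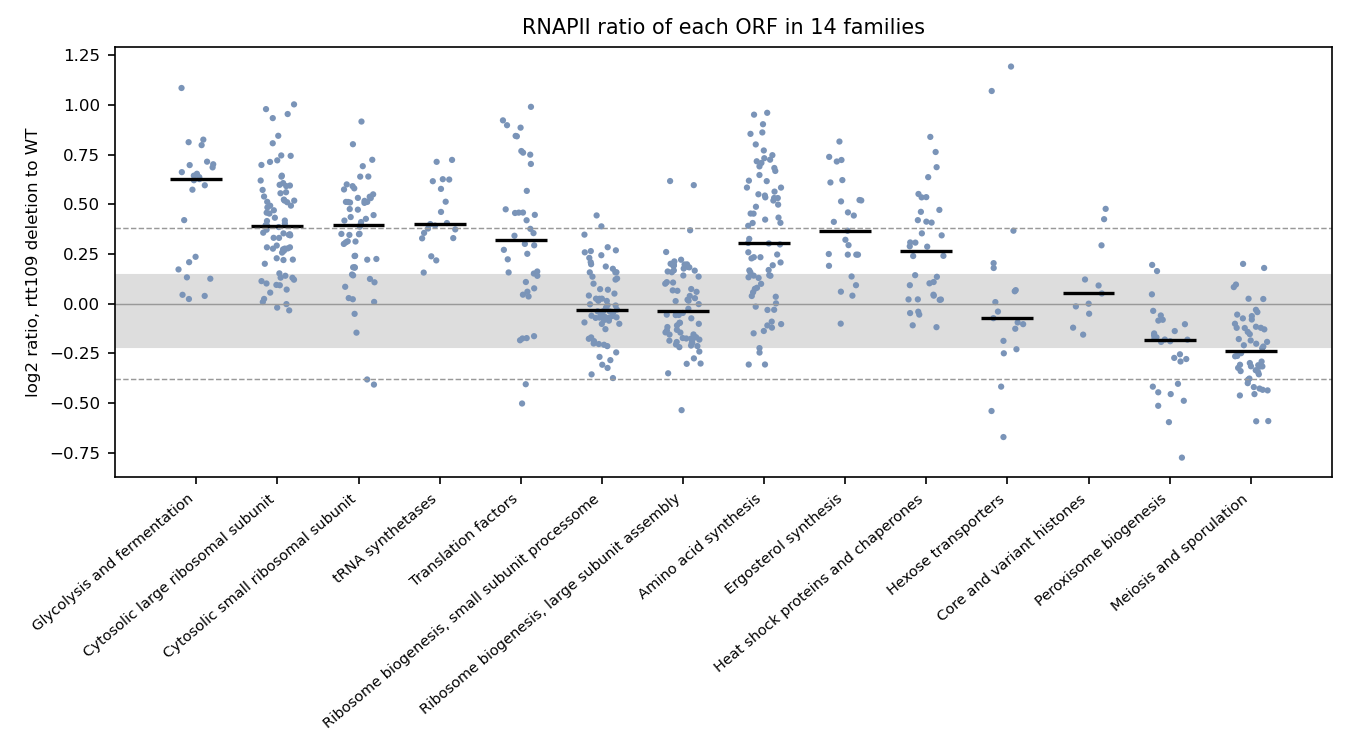
Log2 ratio of *rtt109Δ* to WT for each ORF (points) of 14 families, with the family median (bar), the interquartile range of all ORFs (grey band) and 1.3-fold (dashed lines). Ribosomal proteins have medians of 0.39, while ribosome biogenesis factors lie around 0 like the bulk of the genome. The points of hexose transporters run from -0.67 to 1.19.

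Amino acid synthesis showed the largest number of higher ORFs after the large ribosomal subunit, but it is a large family. Its share of higher ORFs was 48.0%, against 8.74% of all ORFs. That was below glycolysis (68.0%), tRNA synthetases (57.9%) and the large and small ribosomal subunits (51.9% and 51.8%). Of 75 ORFs, 36 were higher and none lower, with a median of 0.31, and the median ratio was 0.746 in WT and 0.958 in *rtt109Δ*. HIS4 (YCL030C, chromosome III, 65934 to 68333), which carries 3 activities of histidine synthesis, went from 0.759 to 1.48 (0.96). ILV5, the reductoisomerase of the branched-chain pathway, went from 0.718 to 1.39 (0.95), and the asparagine synthetase ASN1 from 0.722 to 1.31 (0.86). The branched-chain pathway, picked out after its values were seen, had 8 of 11 ORFs higher and a median of 0.68. In it, the subunits of acetolactate synthase ILV2 and ILV6 had log2 ratios of 0.77 and 0.90, the dehydratase ILV3 0.80 and the transaminase BAT1 0.72. The second copies LEU9 and BAT2 had 0.26 and 0.23, against 0.62 for LEU4 and 0.72 for BAT1. At the other end, TYR1 of tyrosine synthesis and LYS5, which activates a lysine enzyme, both had -0.31, and ARG2 of ornithine synthesis had -0.22.

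Nucleotide synthesis had a median of 0.15 over 34 ORFs, of which 7 were higher and none lower. The folate enzyme ADE3 went from 0.56 to 0.953 (0.77) and URA2, which starts pyrimidine synthesis, from 0.936 to 1.46 (0.64). The thymidylate synthase CDC21 had -0.33, one of the lowest values of the family.

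Sterol synthesis was also at the upper end. Of 25 ergosterol ORFs, 12 were higher and none lower, with a median of 0.37. The methyl oxidase ERG25 went from 0.696 to 1.23 (0.82), the desaturases ERG5 and ERG3 from 1.00 to 1.67 (0.74) and from 0.769 to 1.27 (0.72). Fatty acid and phospholipid synthesis had a median near 0, 0.06, but 9 of its 31 ORFs were higher and none lower. The acetyl-CoA synthetase used in glucose, ACS2 (YLR153C, chromosome XII, 445524 to 447575), went from 0.647 to 1.32 (1.03). The fatty acid synthase subunit FAS2 went from 0.648 to 1.24 (0.94) and the acyl-CoA synthetase FAA4 from 0.589 to 1.07 (0.86). The other acetyl-CoA synthetase, ACS1, which is repressed by glucose, had 0.44 and lies on chromosome I, 0.14 above the median of that chromosome. In the same family the ethanolamine branch gene EPT1 and the elongase ELO2 had -0.17 and -0.11.

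Genes of the cell surface and of the proteins that fold new chains also had medians above that of all ORFs. In the cell wall family 14 of 35 ORFs were higher and none lower, with a median of 0.18. The glucan synthase FKS1 went from 0.874 to 1.56 (0.83), while its paralog GSC2, which is induced by stress, had 0.11. The glucan remodelling protein GAS1 had 0.72 and ECM33 0.63. Among heat shock proteins and chaperones 12 of 36 were higher and none lower, with a median of 0.26. The Hsp70 proteins of growing cells SSA1 and SSA2, which are nearly identical, had 0.84 and 0.55, and SSC1 of mitochondria 0.64, while the heat-induced SSA3 and SSA4, given as their paralogs, had -0.06 and -0.04. SSA1 lies on chromosome I, 0.54 above its median. The subunits of the CCT chaperonin, grouped after their values were seen, had a median of 0.04 over 7 ORFs.

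Respiration and mitochondria were mixed. The TCA cycle had a median of 0.15 over 26 ORFs, with 3 higher (11.5%, near the 8.74% of all ORFs) and none lower. It was led by PYC2, which feeds oxaloacetate into the cycle, at 0.65 and aconitase ACO1 at 0.42. The respiratory chain with ATP synthase had a median of 0.04 over 36 ORFs, 5 higher and 4 lower. These were 13.9% and 11.1%, against 8.74% and 9.53% of all ORFs. QCR2 of complex III had 0.49, ATP2 of the ATP synthase 0.47 and ATP20, also of the ATP synthase, -0.41. Mitochondrial ribosomal proteins did not move with the cytosolic ones: of 73 ORFs 2 were higher and 9 lower, with a median of -0.08 as deposited that turned to 0.01 after division by the mean over windows. The lower ORFs were 12.3% of the family, near the 9.53% of all ORFs, and with tracks scaled to the median ORF 4 were lower and 3 higher. MRPS16 went from 1.45 to 0.946 (-0.61). In mitochondrial import the outer membrane protein SAM37 went from 1.55 to 0.953 (-0.70).

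Hexose transporters bring glucose into the cell, and their log2 ratios ran from -0.67 to 1.19. HXT6 (YDR343C, chromosome IV, 1159608 to 1161320) went from 0.417 to 0.953 (1.19), the highest log2 ratio of any ORF in the 42 families, and its neighbour HXT7 went from 0.428 to 0.899 (1.07). They are nearly identical in sequence, so the value of each is uncertain. HXT5, which is used in slow growth, went from 1.01 to 0.636 (-0.67), HXT14 from 1.72 to 1.19 (-0.54) and HXT2, a high-affinity transporter, from 0.983 to 0.736 (-0.42). The family median was -0.07 over 19 ORFs, with 2 higher (10.5%) and 3 lower (15.8%). Among all ORFs the shares were 8.74% and 9.53%, so these few calls set the family little apart. In the galactose pathway, whose enzymes are repressed in glucose, 1 of 9 ORFs was lower (11.1%, near the 9.53% of all ORFs). GAL7 went from 1.14 to 0.837 (-0.44), GAL1 from 1.04 to 0.813 (-0.36), GAL10 had -0.06, the activator GAL4 -0.17, its inhibitor GAL80 -0.36, the inducer GAL3 -0.02 and the transporter GAL2 0.18. PGM2 and GCY1 had 0.09 and 0.07.

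Smaller groups of transport and storage genes held single ORFs far from their family median. The vacuolar ATPase, which acidifies the vacuole, had a median of 0.10 over 17 ORFs, 3 higher and 1 lower. Its catalytic subunit VMA1 went from 0.707 to 1.18 (0.73) and VPH1, the membrane subunit used at the vacuole, had 0.55, while the assembly factor VMA22 had -0.51. Phosphate-regulated genes had a median of 0.02 over 24 ORFs, with the phosphate transporter PHO84 at 1.05 and 1.47 (0.48) and VTC1, which acts in polyphosphate synthesis, at 0.51. Storage carbohydrate and general stress genes had a median of 0.07 over 38 ORFs. In that family the trehalase NTH1 went from 0.977 to 1.35 (0.46), its paralog NTH2 had -0.08, and the glutaredoxin GRX1 had -0.51. The proteasome had 1 higher and 1 lower of 36 ORFs and a median of 0.03, with the lid subunit RPN8 at -0.55. Nuclear pore genes had a median of -0.0039 over 31 ORFs, and their higher ORF, NUP60 (0.63), lies on chromosome I.

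Histone genes are arranged as divergent pairs that share a promoter. HTA2 (chromosome II, 235394 to 235792) and HTB2 (236492 to 236887), a pair for H2A and H2B, were both higher: HTA2 went from 0.916 to 1.27 (0.48) and HTB2 from 1.12 to 1.499 (0.43). The other H2A and H2B pair differed little, with HTA1 at 0.834 in both tracks and HTB1 at 0.694 and 0.719 (0.05). Of the H3 and H4 genes, HHT1 had 0.12 and HHF1 -0.12, and HHT2 and HHF2 had 0.29 and 0.09. The variants HTZ1 (H2A.Z) and CSE4 (the centromeric H3) had -0.01 and -0.16, and the linker histone HHO1 -0.05. Each core histone ORF covers few windows, so single windows weigh more here. Copies of the same histone are close in coding sequence.

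Most genes of the proteins that work with Rtt109 were called neither higher nor lower, as were most ORFs of the genome. Of all ORFs 8.74% were higher and 9.53% lower. Over 26 ORFs of H3-K56 acetylation and histone chaperones the median was -0.11 with RTT109 included. The 1 lower ORF (3.85%) was RTT109 itself, and 1 ORF (3.85%) was higher, with a log2 ratio of 0.51. Asf1 and Vps75, the partners of the enzyme, had log2 ratios of 0.08 at ASF1 and 0.06 at VPS75, named after their values were seen. The HIR complex represses histone genes, and its subunits HIR3 and HIR2 had -0.30 and -0.24. The elongation chaperones SPT6 and SPT16 had 0.22 and 0.08. Over 64 chromatin remodelers and histone modifiers the median was -0.07, with 5 higher (7.81%) and 3 lower ORFs (4.69%), neither share above that of all ORFs. The corepressor SIN3 had 0.45, and the deacetylase subunit HDA2 and the H3-K79 methyltransferase DOT1 both had -0.44. In the transcription apparatus itself the median was -0.03 over 67 ORFs, and the largest RNAPII subunit, RPO21, the protein that carries the antibody's epitope, went from 0.775 to 1.25 (0.69). RPB2 had 0.34.

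The lowest family medians were those of meiosis, autophagy and peroxisome biogenesis. Some other families classed as silent programs were not this low. Galactose genes had -0.06, PAU and COS genes -0.06 and phosphate-regulated genes 0.02, against -0.05 for all ORFs. Meiosis and sporulation had the lowest median, -0.24 over 54 ORFs, with 11 lower and none higher and 6 log2 ratios above 0. The lower share was 20.4%, against 9.53% of all ORFs, and with tracks scaled to the median ORF 7 were lower. IME1 (YJR094C, chromosome X, 604569 to 605651), the master regulator of meiotic entry, went from 1.6005 to 1.06 (-0.59). SPO21, of the spore membrane, went from 1.73 to 1.15 (-0.59), and MAM1, which orients chromosomes in meiosis I, from 1.69 to 1.23 (-0.46). GMC2, of the synaptonemal complex, had 0.20. Autophagy had a median of -0.19 over 34 ORFs, 5 lower (14.7%) and 1 higher, and 4 lower when scaled to the median ORF. The ER receptor ATG40 had -0.58, ATG34 -0.50 and ATG14 -0.49, while ATG41 went from 0.831 to 1.28 (0.62). Peroxisome biogenesis had 8 lower of 29 ORFs (27.6%) and none higher, with a median of -0.18, and 6 lower when scaled to the median ORF. PEX27 (YOR193W, chromosome XV, 710446 to 711576), which acts in peroxisome division, went from 2.14 to 1.25 (-0.77), PEX35 from 1.79 to 1.18 (-0.60) and PEX32 from 1.59 to 1.11 (-0.51).

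Other families below 0 under all 3 scalings had medians between -0.17 and -0.11. In mating and pheromone response 7 of 37 ORFs were lower and none higher, led by PRM6, which went from 2.51 to 1.47 (-0.77), but with tracks scaled to the median ORF 3 were lower and 1 higher. DNA replication had 4 lower and 1 higher of 46 ORFs. The lower share, 8.70%, was near the 9.53% of all ORFs, and none of these 4 was called with tracks scaled to the median ORF. The origin recognition subunits ORC1, ORC5 and ORC6 had -0.42, -0.40 and -0.40, and the helicase subunit MCM3 0.31. The higher ORF of the family, RFA1 of the single-strand binding protein (0.51), lies on chromosome I, 0.21 above the median there. The DNA damage response, a process in which Rtt109 acts, had 3 lower ORFs of 51 (5.88%, a smaller share than among all ORFs) and none higher, with DIN7 at -0.53 and RAD50 at -0.47. In iron and copper uptake 5 of 32 ORFs were lower (15.6%), and 4 with tracks scaled to the median ORF. By the rule for single genes the lowest were the copper transporter CTR3 (-0.48) and the reductases FRE3 (-0.44) and FRE4 (-0.41). Splicing had 7 lower (12.1%, close to the share of all ORFs) and 2 higher of 58, with the lowest values at PRP39 (-0.63), LSM8 (-0.60) and LSM4 (-0.58).

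The order of the families was related to their level. ORFs were ranked by the *rrp6Δ* track, which has its own IP libraries but shares the input, in 20 groups of equal size. From the group with the lowest to that with the highest *rrp6Δ* ratio, the median log2 ratio fell from 0.30 to -0.34. Across the 42 families the Spearman correlation of the *rrp6Δ* median with the log2 median was -0.887, a description over families that share tracks and some genes. Over single ORFs the correlation of the *rrp6Δ* ratio with the log2 ratio was weaker, -0.598. When the median of each ORF's level group was subtracted, the families at the upper end kept medians of 0.33 for glycolysis, 0.30 and 0.23 for the large and small ribosomal subunits, 0.28 for tRNA synthetases, 0.27 for ergosterol synthesis, 0.20 for amino acid synthesis and 0.17 for translation factors. At the lower end meiosis came to -0.05, autophagy to -0.02, DNA replication to -0.05 and mating to -0.03, while peroxisome biogenesis kept -0.13. Families between these ends also moved: chaperones came to 0.11, nucleotide synthesis to 0.04 and the TCA cycle to 0.09, while the cell wall family kept 0.18.

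**Figure D3:**
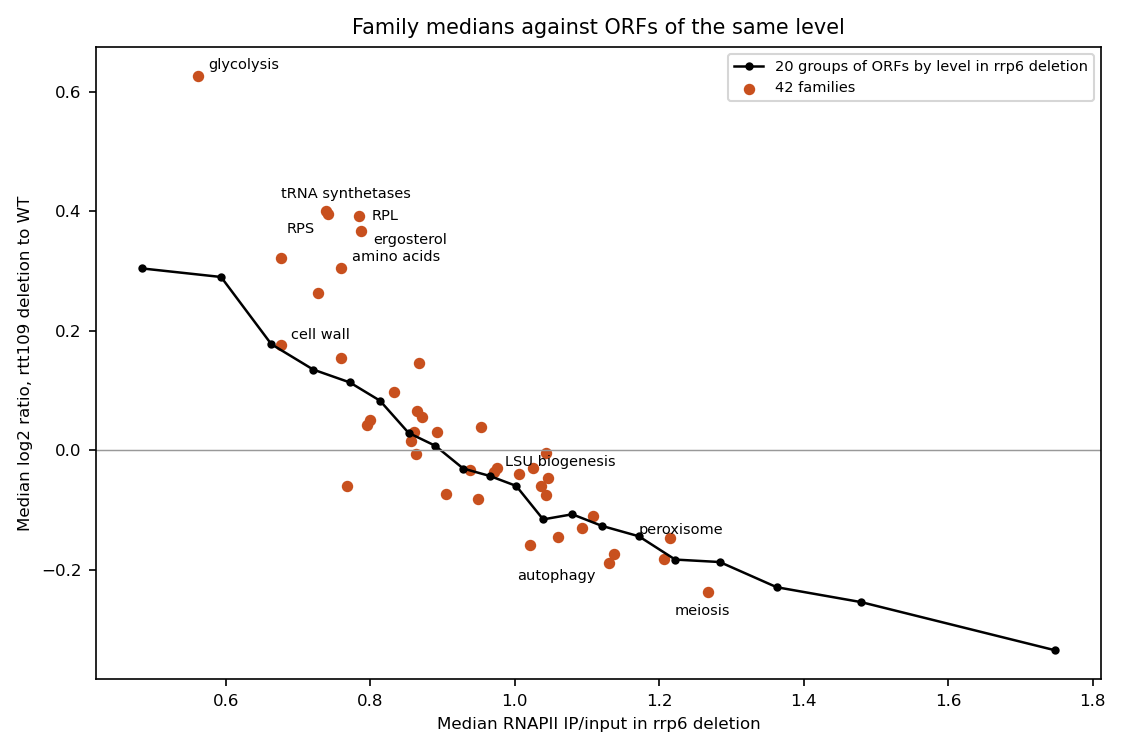
Median log2 ratio of *rtt109Δ* to WT against the median IP/input ratio in *rrp6Δ*, for 20 groups of ORFs of equal size ranked by that ratio (black line) and for 42 families (orange). The line falls from 0.30 to -0.34. Glycolysis, ribosomal proteins, tRNA synthetases, ergosterol and amino acid synthesis lie above the line, and meiosis and autophagy lie close to it or below.

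The *rtt109Δ* track also had a narrower range than WT, with an SD over windows of 0.661 against 0.897. Replacing each *rtt109Δ* value by the WT value of the same rank makes both distributions equal, and the same families then stood highest. Glycolysis had a median of 0.68 with 17 higher ORFs, the large and small subunits 0.45 and 0.43 with 48 and 31 higher, tRNA synthetases 0.48, ergosterol synthesis 0.38, amino acid synthesis 0.34 and translation factors 0.30. Meiosis had -0.18 with 5 lower ORFs, and peroxisome biogenesis -0.17.

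The difference extended through the ORF at the families that were higher. In ORFs of at least 900 bp, glycolysis had a median log2 ratio of 0.67 in the first of 3 equal parts, 0.60 in the middle and 0.39 in the last. The corresponding values were 0.44, 0.59 and 0.28 for tRNA synthetases and 0.41, 0.49 and 0.33 for amino acid synthesis, against 0.06, -0.02 and -0.13 over all 3798 ORFs of that length. In the 250 bp before the start codon the medians were smaller, 0.19 for glycolysis, 0.07 for tRNA synthetases and 0.19 for amino acid synthesis, against -0.06 for all ORFs. Ribosomal proteins had 0.32 and 0.33 there. Meiosis went from -0.17 before the start codon to -0.23, -0.30 and -0.31 in the parts of the ORF.

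**Figure D4:**
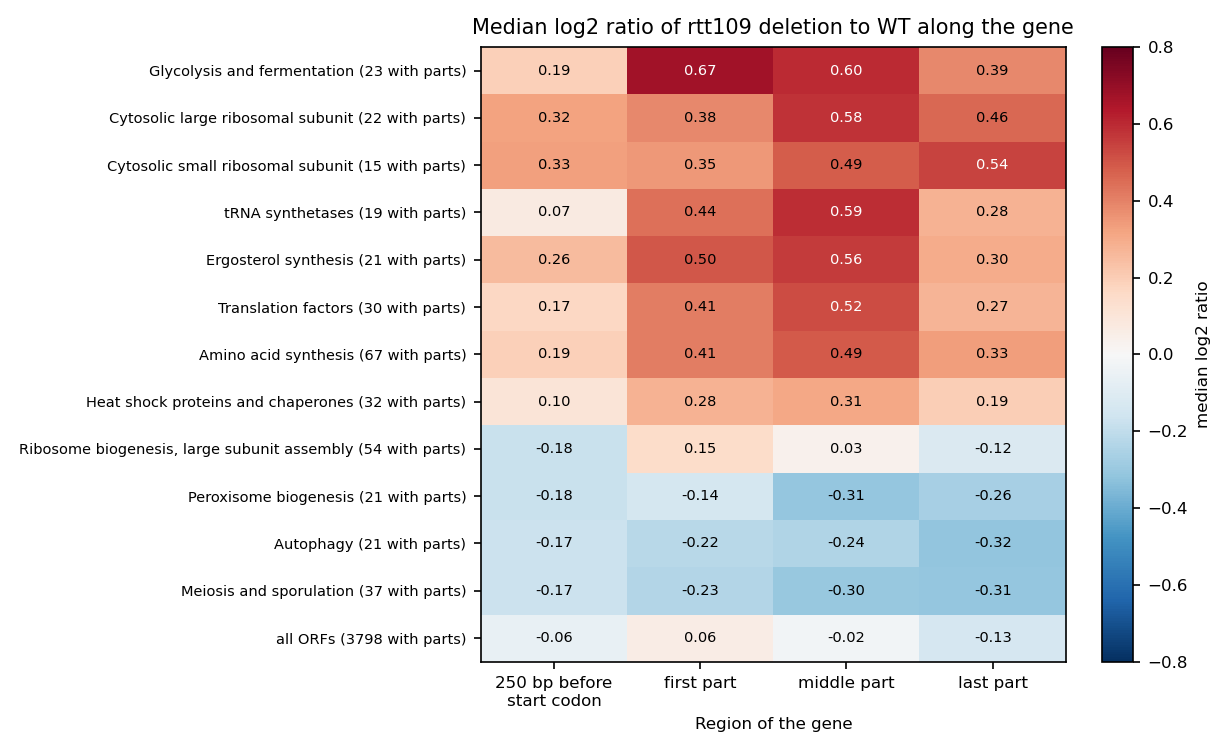
Median log2 ratio of *rtt109Δ* to WT in the 250 bp before the start codon (all members) and in 3 equal parts of ORFs of at least 900 bp (number in brackets), for 12 families and all ORFs. Values are printed in the cells, with red above and blue below 0. The families at the top are above 0 in all 4 regions, with lower values before the start codon than in the middle part.

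Averaged around the start codon, both tracks peaked upstream and dipped inside the ORF. Over all ORFs the peak was 1.87 in WT and 1.68 in *rtt109Δ*, both in the bin centred 125 bp before the start codon. Over glycolytic genes it was 2.29 in WT and 2.74 in *rtt109Δ* at 75 bp, and the lowest bin inside the ORF was 0.464 and 0.760. Over ribosomal protein genes the peak was 1.75 and 2.24 and the lowest bin 0.698 and 0.974. Over meiotic genes the order was inverse, with peaks of 2.38 and 1.83 and lowest bins of 1.05 and 0.917. Ribosome biogenesis genes had peaks of 1.87 and 1.70 and lowest bins of 0.794 and 0.822, close to all ORFs.

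**Figure D5:**
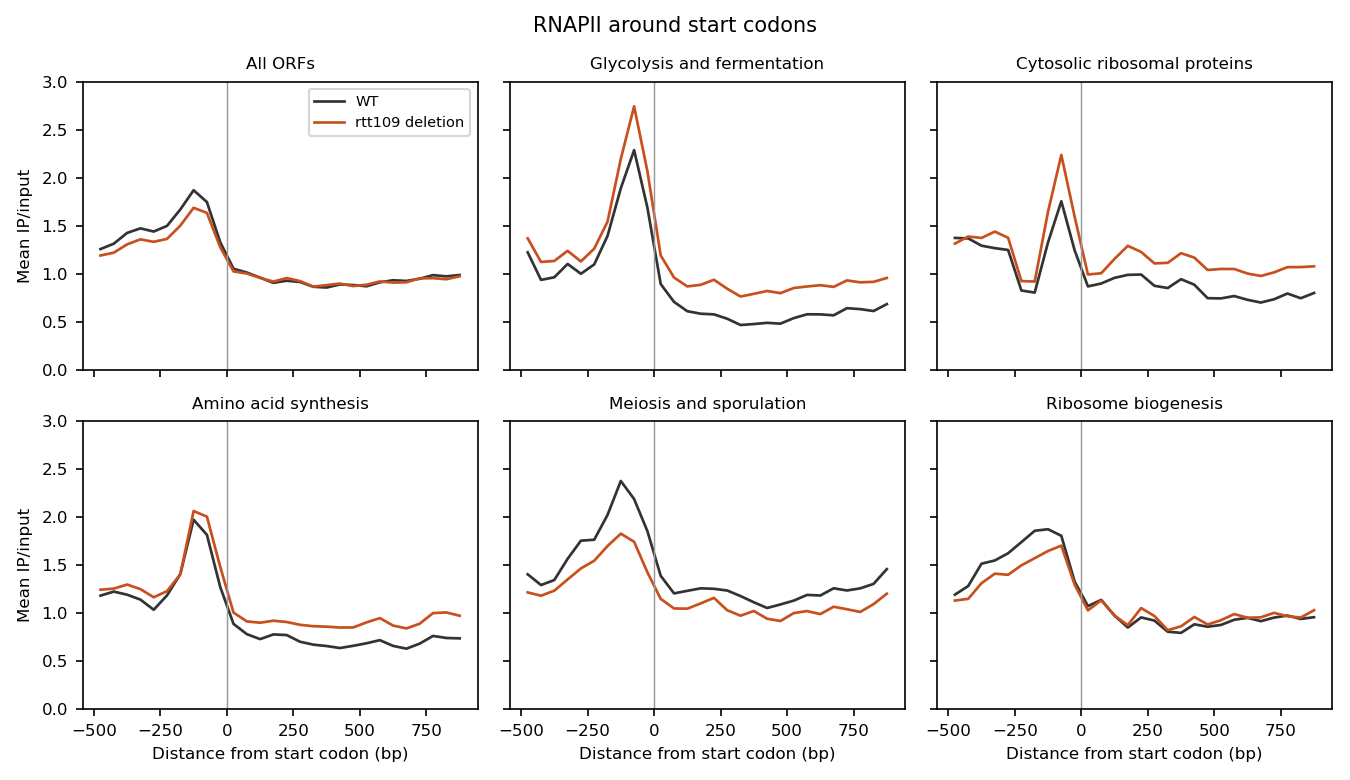
Mean IP/input ratio in bins of 50 bp from 500 bp before to 900 bp after the start codon in WT (dark) and *rtt109Δ* (orange), for all ORFs and 5 groups of genes. Only windows upstream of or inside the ORF were used. The *rtt109Δ* line runs above WT through glycolytic and ribosomal protein genes, and below WT at meiotic genes.

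At the families with the highest medians, the genes next to them showed little of the difference. The ORFs beside glycolytic genes had a median of 0.03 (50 ORFs), those beside genes of the large and small ribosomal subunits 0.02 (149 ORFs) and -0.03 (109 ORFs), and those beside amino acid synthesis genes 0.01 (146 ORFs). Beside ergosterol genes the median was 0.08 (50 ORFs). These values were slightly above the -0.05 of all ORFs. Beside meiotic genes it was -0.10 (101 ORFs) and beside mating genes -0.16 (74 ORFs), as low as the mating genes themselves. The members of the large subunit lay on 13 chromosomes and those of amino acid synthesis on all 15.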

How the data were processed

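The deposited files hold the IP/input ratio for 228888 windows (100 bp wide, 50 bp apart, 15 chromosomes) as 1 track per genotype, which the authors made from 2 biological samples each and 1 input (7 samples). The submitters' notes name FastQC, Bowtie2, SAMtools, deepTools, bedtools and build sacCer3. The study's methods name an earlier procedure or MACS2, and how replicates were combined is not given in the sources used here. ORFs came from RefSeq R64, the assembly of that build, and strand from systematic names. ChIP has no strand.

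No pseudocount or filter was used, and no test between single tracks was possible. Single genes were the 3 lowest and 3 highest of a family among ORFs of at least 300 bp that overlapped no other, reached the median ORF in the higher track and changed the same way in 3 parts, all members of families of 12 or fewer, and paralogs beside them. Many genes named as highest reached the median ORF only in *rtt109Δ*, and some named as lowest only in WT. The size of their changes is thus partly a product of the choice. Members, families and the rule were chosen with earlier results of these data known. Alternatives were other scalings, window medians, filters, a 1.5-fold limit, a pseudocount, no chromosome I and level groups. Scripts were tested on simulated data. Software was pandas 2.3.3, numpy 2.4.6, matplotlib 3.10.9 and scipy 1.17.1 under Python 3.11.15.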

Additional observations from a re-analysis of the deposited data

How the results depend on the processing

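No paired analysis was possible because the replicates of a genotype were merged in its deposited track, which also prevents leaving any replicate out. Family medians count as moved when they leave the order-statistic 95% interval of the median over members, which holds no replicate error. Of 420 recomputed family medians 373 stayed within it, 47 moved, and none of the 19 families whose interval lacks 0 changed sign. Part of this was fixed in advance. The pseudocount cannot change the sign of an ORF, and both other scalings cannot turn a median above 0. Leaving out chromosome I changes nothing for families without members there. Values relative to the chromosome median and the WT distribution by rank were added after the data were seen. The depth is unknown, and copies with shared sequence limit single genes. The cause was not tested for any change beyond what a setting does by construction.

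The count of lower ORFs was 233 with each track divided by its mean over windows, 98 at 1.5-fold, 132 with a pseudocount of 0.5 and 349 relative to the chromosome median. The count of higher ORFs was 797, 173 and 154 under the first 3 of these. It was 291 when ORFs under the median ratio in both tracks were left out. That setting kept 3562 of the 5781 ORFs, so its count is not comparable with the others. Division by the mean over windows turned the median of all ORFs to 0.043. Scaling to the median ORF gave -0.0021, and the median was -0.011 with window medians, -0.12 without those ORFs, -0.032 with the pseudocount and -0.023 with the WT distribution by rank.

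After division by the mean over windows the medians were 0.49 for both ribosomal subunits, 0.72 for glycolysis, 0.25 for the TCA cycle, -0.088 for peroxisome biogenesis, -0.036 for splicing, -0.054 for DNA damage response and -0.14 for meiosis. With the pseudocount they were 0.26 and 0.24 for the large and small subunits, 0.25 for tRNA synthetases, 0.20 for ergosterol synthesis, -0.13 for peroxisome biogenesis and -0.10 for DNA damage response. Relative to the level group they were 0.30 and 0.23 for the subunits, 0.28 for tRNA synthetases, -0.018 for autophagy, -0.13 for peroxisome biogenesis, -0.051 for DNA replication, -0.050 for DNA damage response, -0.049 for meiosis and -0.033 for mating. Without ORFs under the median ratio, glycolysis had 0.69 (10 ORFs left) and amino acid synthesis 0.53 (42 left), but all 10 passed only through their *rtt109Δ* value, so this filter says nothing about stability. With window medians, the TCA cycle had 0.23 and DNA damage response -0.10. Peroxisome biogenesis and DNA damage response had -0.13 and -0.099 after division by the median ORF, and -0.14 and -0.098 relative to the chromosome median.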

Other observations

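Outside the 42 families, the ORFs furthest above WT under the same rule included uptake of nitrogen compounds, a group picked out only after its values were seen. The general amino acid permease GAP1 went from 0.792 to 1.59, a log2 ratio of 1.01, AGP1 from 0.93 to 1.64 (0.82), the arginine permease CAN1 from 0.907 to 1.49 (0.72), and the branched-chain permeases BAP3 and BAP2 had 0.72 and 0.69. Over a list of 20 amino acid permeases written afterwards, 10 were higher and none lower, with a median of 0.36 and a range of -0.33 to 1.01. GCN4, the activator of amino acid synthesis genes, went from 0.725 to 1.18 (0.71), and FCY2, a purine and cytosine permease, from 0.919 to 1.49 (0.70).

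ALD5, a mitochondrial aldehyde dehydrogenase, had 1.04 and SAH1, which removes S-adenosylhomocysteine, 0.85. TAR1, which lies in the ribosomal DNA repeat, had 1.54, and the asparaginase copies ASP3-1 and ASP3-3 had 0.84 and 0.81. The values of these repeated ORFs cannot be assigned to single copies.

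Among the ORFs outside the families that were furthest below WT were CSI1 and CSN9, both subunits of the COP9 signalosome, at -0.81 and -0.80, and POP4, a subunit of RNase P, at -0.95. CSI1 and CSN9 were set together only after their values were seen, and the other subunits of the signalosome are not given here.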
